A study of Mus musculus with 12 samples.

Results

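The S100 proteins, the annexins and galectin-1 are calcium- or sugar-binding proteins, and 10 of their genes were followed here through bile duct ligation (BDL) in sorted liver cells: *S100a1*, *S100a4*, *S100a6*, *S100a10*, *S100a11*, *Anxa1*, *Anxa2*, *Anxa4*, *Anxa5* and *Lgals1*. They were taken by symbol from the 16971 genes of the authors' table, and all 10 were among the 12889 genes kept by a minimum of 10 on the sum of normalized counts. BDL ties off the common bile duct and blocks the flow of bile. GFP(+) cells were sorted from the nonparenchymal fraction of livers of *Prom1CreERT2-nLacZ/+;Rosa26Lsl-GFP/+* mice in a C57BL/6 background, male and female in numbers that differed between the groups, and their mRNA was sequenced at day 0 or at 3 or 14 days after BDL. Day 0 is sham in the labels and the time before BDL in the study. Tamoxifen was given 7 days before surgery to 6-week-old mice of every group, day 0 included, so each group carried the same alleles and the same drug. The time from tamoxifen to sampling and the age at sampling thus differed between the groups along with BDL, with sham samples only at day 0. The Cre recombinase is made from the *Prom1* locus, so that GFP marks any cell that expressed *Prom1* at the time of tamoxifen, together with its progeny. The labels describe 12 samples, with 3, 3 and 6 in the day 0, BDL day 3 and BDL day 14 groups. The table rests on 10 libraries, since group sizes of 3, 3 and 4 matched the table's overall mean of each gene to within 0.678%, and which 2 BDL day 14 samples were set aside is not given in the sources used here.

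The sort is named for hepatic progenitor cells of the biliary tree, and among the marker lists checked in the same table the highest sums were those of macrophages, not of cholangiocytes. The 9 macrophage markers summed to 13020, 24020 and 20960 normalized counts in the day 0, BDL day 3 and BDL day 14 groups, against 660.4, 329 and 961.5 for the 15 cholangiocyte markers (12 of them past the filter), of which *Spp1* alone held 459, 175 and 792. Of the macrophage sums, *Lyz2* alone held 2280, 4560 and 11200. *Krt19*, the keratin that defines bile duct cells, stood at 21.5, 12.7 and 14.3, and *Prom1* itself at 6.66, 0.956 and 1.76. The 8 Kupffer cell markers, those of resident liver macrophages, summed to 10500, 22970 and 1582. The 7 monocyte markers summed to 314, 366 and 1701. In these bulk samples, more cells of a type and more RNA per cell cannot be told apart.

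S100 proteins are dimers with EF-hand loops that change shape when calcium binds and then dock onto partner proteins, among them cytoskeletal motors and annexins. Annexins bind acidic phospholipids in a calcium-dependent way and gather membranes at sites of fusion, repair or vesicle budding. Certain S100 proteins pair with certain annexins. S100a10 joins Anxa2, and the complex holds plasminogen and its activator at the cell surface, while S100a11 joins Anxa1. Galectin-1, the product of *Lgals1*, is secreted without a signal peptide and cross-links glycans that end in galactose on receptors and matrix. Macrophages, fibroblasts and bile duct cells are all known to make several of these proteins.

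Promoter sequences from RefSeq (GRCm38.p6, 250 bases before to 50 after each start site) were found for 8 of the 10 genes, and those of *S100a10* and *Lgals1* were not used here. They were searched on both strands for short motifs. The TATA box, TATAAA, where the basal machinery binds, was found in 3 of the 8 genes, *S100a4* at position -31 from the start site, *Anxa1* at -32 and *Anxa2* at -17, against 13.6% of all 32851 promoters. The site of the stress-induced factor AP-1, TGANTCA, was found in 2 of the 8, *S100a11* and *Anxa2*, against 7.81% of all promoters. The GC box, GGGCGG, was found in 3 of the 8 (*S100a11*, *Anxa2* and *Anxa4*) against 35.7%. The site of the myeloid factor PU.1, GAGGAAGT, was found in 1 of the 8 (*S100a4*, at 17 bases after the start site) against 3.20%. None of these motifs overlapped another in the 8 genes. The 3 sequences below are shown because they belong to the gene with the largest ratio at BDL day 14 (*S100a4*) and to the 2 genes with an AP-1 match (*S100a11* and *Anxa2*). Each runs 5′ to 3′ on the strand of its gene, with matches in capitals, and stops before the first base of the gene as annotated, so the 3 matches of *Anxa2* nearest to its start site are not printed. The *S100a4* stretch lies at chr3:90603520-90603769 (plus strand), *S100a11* at chr3:93520246-93520487 (plus strand) and *Anxa2* at chr9:69453433-69453619 (plus strand).
S100a4: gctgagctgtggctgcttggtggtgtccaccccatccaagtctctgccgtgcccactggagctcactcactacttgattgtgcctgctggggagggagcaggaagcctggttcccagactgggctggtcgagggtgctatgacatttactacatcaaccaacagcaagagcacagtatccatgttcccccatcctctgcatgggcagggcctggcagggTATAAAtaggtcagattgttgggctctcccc
S100a11: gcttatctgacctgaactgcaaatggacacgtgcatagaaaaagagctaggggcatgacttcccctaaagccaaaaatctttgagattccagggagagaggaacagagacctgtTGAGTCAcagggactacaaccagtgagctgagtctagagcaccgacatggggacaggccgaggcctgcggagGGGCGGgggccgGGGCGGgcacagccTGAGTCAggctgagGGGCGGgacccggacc
Anxa2: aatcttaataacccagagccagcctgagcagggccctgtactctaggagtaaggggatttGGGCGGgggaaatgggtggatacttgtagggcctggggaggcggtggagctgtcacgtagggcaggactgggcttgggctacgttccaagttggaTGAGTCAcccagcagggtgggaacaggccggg
The printed *S100a4* stretch holds only the TATA box, and its whole window has 2 CpG dinucleotides, against a median of 7 over all promoters. The windows of *S100a11* and *Anxa2* have 15 and 13, and the *Anxa1* window has 3. A match here is a match of letters only.

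The authors' table gives 1 mean per group and no value for a single library, so the value of each library could not be shown. It also gives, over the 10 libraries together, the geometric mean and the count of the highest library. From these, the pooled within-group SD of each gene on the log2 scale was computed, which takes the spread to be alike in the 3 groups, and the range that any single library of a group could hold. Ranges of 2 groups can overlap although no set of libraries that matches the table does, since their extremes need not occur together. Log2 ratios of group means are given ± the standard error (SE) that follows from this SD with n = 3, 3 and 4 libraries. A gene is called higher or lower past a 1.5-fold ratio, the fold used in the study. No p-value is given, since the SD rests on that assumption and not on the values of single libraries, and the study counts each library as 1 mouse.

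**Figure D1:**
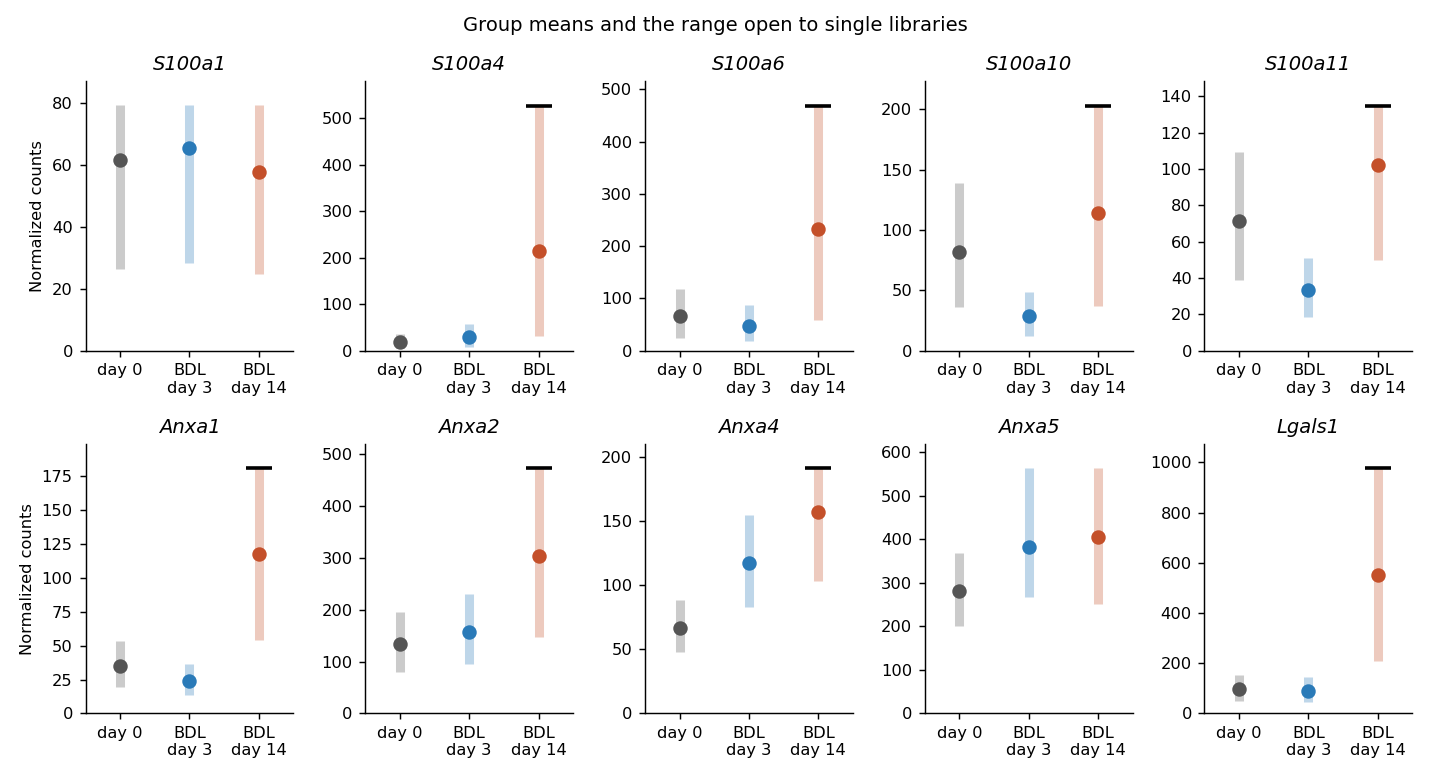
Normalized counts (vertical axis, from 0) of each of the 10 genes in the 3 groups. Points are the authors' group means, shaded bars the range that a single library of the group could hold, and black lines the highest library where it could only belong to BDL day 14. The BDL day 14 mean is the highest of the 3 in each gene but *S100a1*.

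At BDL day 14, 6 of the 10 genes were past 1.5-fold higher than day 0 and 0 were lower, where 21.2% of all genes kept were higher and 28.8% lower. The 6 were *S100a4*, *Lgals1*, *S100a6*, *Anxa1*, *Anxa4* and *Anxa2*, at ratios of 11.7, 5.64, 3.54, 3.37, 2.35 and 2.26. The median log2 ratio of the 10 genes was 1.20, against -0.04 for all genes kept. Against BDL day 3, 7 of the 10 were higher and 0 lower, where 21.2% of all genes were higher and 19.7% lower, with a median log2 ratio of 1.81 against 0.00. The highest of the 3 group means was that of BDL day 14 in 9 of the 10 genes, against 31.4% of all genes kept. The summed signal of the 10 genes was 912, 978 and 2254 normalized counts in the day 0, BDL day 3 and BDL day 14 groups. At BDL day 3 the genes were split, with 2 of 10 higher than day 0 (*S100a4* and *Anxa4*) and 2 of 10 lower (*S100a10* and *S100a11*), where 19.2% of all genes were higher and 29.2% lower. The comparisons at BDL day 3 and BDL day 14 share the day 0 libraries. Over all genes kept, the share of higher calls among all calls moved with the scaling, from 39.7% to 55.9% for the early comparison with day 0 and from 42.4% to 54.7% for the late one when the group means were quantile normalized, which moved the median log2 ratio of all genes to 0.12 and 0.10. Under that scaling 6 of the 10 genes were still past the call at BDL day 14 against day 0. At BDL day 3, 4 were then lower (*S100a6* and *Anxa1* besides *S100a10* and *S100a11*). The shares also moved with the filter. Among the 7291 genes with a mean of at least 10, which all 10 genes reach, 1672 were higher and 1096 lower at BDL day 3 than day 0. At BDL day 14 against day 0 these were 1709 and 1265. Higher calls then made up 60.4% of early and 57.5% of late calls.

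**Figure D2:**
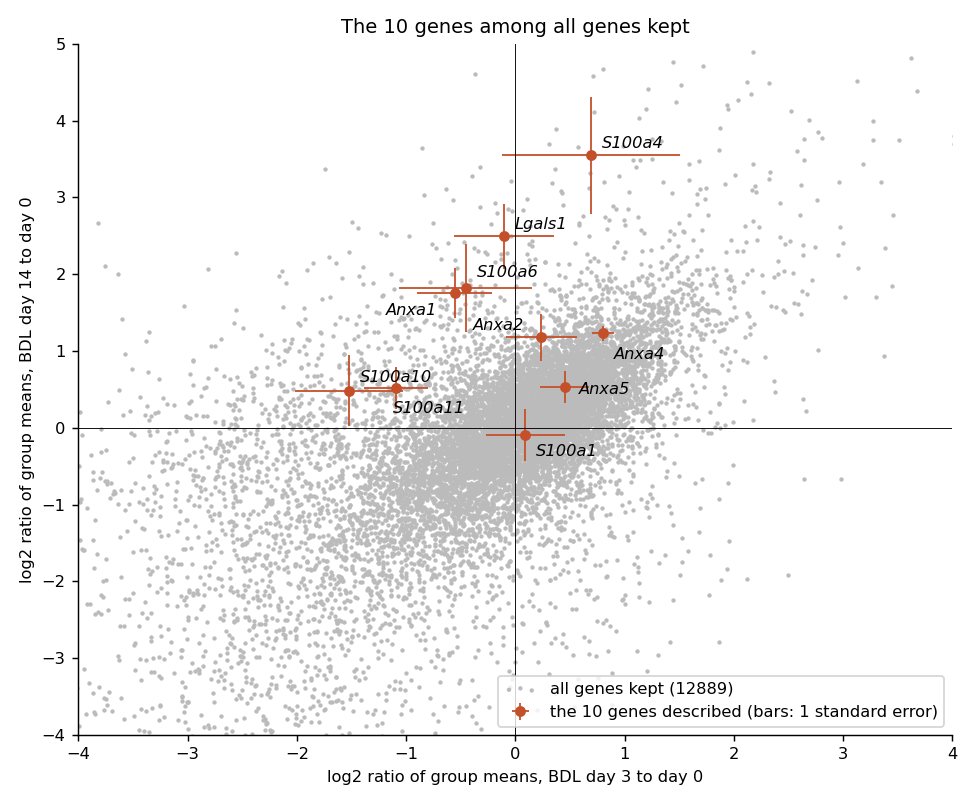
Log2 ratio of group means to day 0 at BDL day 3 (horizontal) and at BDL day 14 (vertical) for the 12889 genes kept (grey) and the 10 genes described (orange, bars of 1 SE), with 511 genes outside the axes. *S100a4*, *Lgals1*, *S100a6* and *Anxa1* lie high on the vertical axis, *S100a10* and *S100a11* lie to the left, and *S100a1* lies near 0 on both.

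*S100a4* (chr3:90603771-90606045, plus strand), which encodes a binder of non-muscle myosin known from motile fibroblasts and myeloid cells, had the largest ratio of the 10 genes. Its mean was 18.3, 29.6 and 214 normalized counts in the day 0, BDL day 3 and BDL day 14 groups. A day 0 library could hold 5.39 to 35.7, a BDL day 3 library 8.71 to 57.7 and a BDL day 14 library 32.3 to 527. The group means differed by a log2 ratio of 3.55 ± 0.76 at BDL day 14 against day 0, at the 99.6 percentile of all genes kept, and the extremes of the 2 ranges could not occur together, so every BDL day 14 library lay above every day 0 library. Against BDL day 3 the log2 ratio was 2.85 ± 0.76, and there an overlap of libraries was possible. The difference between BDL day 3 and day 0 was 0.69 ± 0.82, within its SE, although the ratio of 1.62 passes the 1.5-fold call.

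The BDL day 14 libraries were uneven for this gene. The highest library, at 527, held 61.6% of the signal of the 4 libraries, where an even split would give 25%, and the mean of the other 3 was 110. Without that library the ratio to day 0 was 5.99 in place of 11.7, and the ratio to BDL day 3 was 3.71 in place of 7.23. The pooled SD of 1.00 on the log2 scale lay at the 97.4 percentile of the 873 genes with a like mean. The highest library enters this SD, and through it the SE between BDL day 3 and day 0, where it has no part. Annotated *Gm42674* shares exon bases with *S100a4* on the same strand, so reads of the 2 genes cannot be told apart there.

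*S100a6* (chr3:90612882-90624181, plus strand), or calcyclin, which binds annexins and the ubiquitin ligase partner Cacybp, starts 6.84 kb after the end of *S100a4*. Its mean was 65.8, 48.0 and 233 at day 0, BDL day 3 and BDL day 14. A library could hold 24.7 to 119, 18 to 86.5 and 58.0 to 469 at day 0, BDL day 3 and BDL day 14. BDL day 14 was higher than day 0 by 1.82 ± 0.57 and higher than BDL day 3 by 2.28 ± 0.57 on the log2 scale, and the libraries could overlap in the first comparison and not in the second. The highest BDL day 14 library held 50.3% of its group's signal, and without it the ratios were 2.35 to day 0 in place of 3.54 and 3.22 to BDL day 3 in place of 4.85. Between BDL day 3 and day 0 the log2 ratio was -0.46 ± 0.61.

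*S100a10* (chr3:93555080-93564643, plus strand), the partner of Anxa2 that lacks working calcium loops, fell at BDL day 3 and did not pass the call at BDL day 14 against day 0. Its mean was 81.7, 28.5 and 114 at day 0, BDL day 3 and BDL day 14. A library could hold 35.8 to 139, 12.5 to 48.4 and 37.0 to 203 in the same order. BDL day 3 was 2.87-fold lower than day 0 (log2 ratio -1.52 ± 0.49) and BDL day 14 was 4.00-fold higher than BDL day 3 (2.00 ± 0.46), and the libraries could not overlap in either comparison. BDL day 14 against day 0 was 0.48 ± 0.46. Without the highest library, which held 44.5% of the BDL day 14 signal, that log2 ratio was 0.05.

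*S100a11* (chr3:93520488-93526287, plus strand), or calgizzarin, which binds Anxa1 and lies 28.8 kb before *S100a10*, had its lowest mean at BDL day 3 too. Its mean was 71.2, 33.4 and 102 at day 0, BDL day 3 and BDL day 14. A library could hold 39.0 to 109, 18.3 to 51.3 and 49.9 to 135 in the same order. It was 2.13-fold lower at BDL day 3 than at day 0 (log2 ratio -1.09 ± 0.29) and 3.05-fold higher at BDL day 14 than at BDL day 3 (1.61 ± 0.28), and the libraries could not overlap in either comparison. The BDL day 14 libraries were near even, with 33.1% of the signal in the highest, at 135. BDL day 14 against day 0 was 0.52 ± 0.28, a ratio of 1.43 that does not pass the call. *S100a10* and *S100a11* were the 2 of the 10 genes both lower at BDL day 3 than day 0 and higher at BDL day 14 than BDL day 3, a pattern held by 13.4% of all genes kept. A pseudogene, *S100a11-ps*, is annotated, and the table's rows do not show how shared reads were counted.

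*S100a1* (chr3:90511034-90514392, minus strand), best known as a regulator of calcium handling in muscle, did not pass the call in any comparison. Its means were 61.5, 65.6 and 57.8, and a library could hold 26.4 to 79.3, 28.3 to 79.3 and 24.6 to 79.3 at day 0, BDL day 3 and BDL day 14. BDL day 3 and BDL day 14 differed from day 0 by log2 ratios of 0.09 ± 0.36 and -0.09 ± 0.34, within the SE. An interval of 2 SE on either side leaves room for a change past 1.5-fold, so these values do not show that the gene was level.

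The S100 genes of chromosome 3 lie close together and had unlike ratios. In the order of their positions, the BDL day 14 mean divided by the day 0 mean was 0.940 for *S100a1*, 0.980 for *S100a13*, 1.48 for *S100a16*, 11.7 for *S100a4* and 3.54 for *S100a6*. The next 2 genes, *S100a8* and *S100a9*, which lie 44.8 kb and a further 22.6 kb away and encode the 2 chains of calprotectin, stood at 0.306 and 0.264. *S100a14*, which lies between *S100a13* and *S100a16*, is left out of this order since it was under the filter, at 0.128, 0.52 and 0.883. After a gap of 2825 kb, *S100a11* and *S100a10* stood at 1.43 and 1.40. *S100a1* and *S100a13* start 0.042 kb apart on opposite strands.

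*Anxa1* (chr19:20373428-20390944, minus strand) encodes a ligand of formyl peptide receptors that limits neutrophil recruitment, and it was the annexin with the largest ratio. Its mean was 35.0, 23.8 and 118 at day 0, BDL day 3 and BDL day 14. A library could hold 19.6 to 53.2, 13.3 to 36.1 and 54.3 to 181 at day 0, BDL day 3 and BDL day 14, so the BDL day 14 range lay above both others. The log2 ratio of BDL day 14 was 1.75 ± 0.32 to day 0 and 2.31 ± 0.32 to BDL day 3. The highest library, at 181, held 38.4% of its group, and without it the ratios were 2.77 and 4.08 in place of 3.37 and 4.96. BDL day 3 against day 0 was -0.56 ± 0.34, a 1.47-fold lower mean that does not pass the call.

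*Anxa2* (chr9:69453620-69491795, plus strand), the membrane-binding partner of S100a10, was higher at BDL day 14 as well, with possible ranges that overlapped. Its mean was 134, 158 and 303 at day 0, BDL day 3 and BDL day 14, and a library could hold 80.4 to 196, 94.8 to 231 and 148 to 473. The log2 ratio of BDL day 14 was 1.18 ± 0.30 to day 0 and 0.94 ± 0.30 to BDL day 3. The highest library held 39.0% of the BDL day 14 signal, and without it the ratios were 1.84 and 1.56 in place of 2.26 and 1.92. Between BDL day 3 and day 0 the log2 ratio was 0.24 ± 0.33, whose sign turned under quantile normalization of the group means (-0.07). At BDL day 3 the *S100a10* mean was thus past the call and the *Anxa2* mean was not, a difference between the genes that was not tested. *Gm16144* shares exon bases with *Anxa2* on the opposite strand, and strand use in counting is not given in the sources used here.

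*Anxa4* (chr6:86736840-86793584, minus strand), an annexin known from the apical side of secretory epithelia, was higher at both times, and its libraries could not overlap with day 0 at either. Its mean was 66.9, 117 and 157 at day 0, BDL day 3 and BDL day 14. A library could hold 47.5 to 88.4, 83.1 to 155 and 103 to 191, and the extremes of the first 2 ranges could not occur together. BDL day 3 and BDL day 14 differed from day 0 by log2 ratios of 0.81 ± 0.10 and 1.23 ± 0.10, and BDL day 14 against BDL day 3 was 0.42 ± 0.10. Its pooled SD of 0.12 was the lowest of the 10 genes, at the 1.69 percentile of the 710 genes with a like mean. The values behind it have 3 significant digits, and a spread this small lies within that rounding. The SD, its percentile and the SEs of this gene could thus be too small. *Gm44036* shares exon bases with it on the opposite strand.

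*Anxa5* (chr3:36448923-36475894, minus strand), the annexin used as a probe for exposed phosphatidylserine, had the highest level per length of the annexins in each group and did not pass the call. Its mean was 280, 383 and 405 at day 0, BDL day 3 and BDL day 14, and the highest library, at 563, could belong to either BDL group. BDL day 3 and BDL day 14 differed from day 0 by log2 ratios of 0.45 ± 0.23 and 0.53 ± 0.21. The sign at BDL day 3 turned under quantile normalization (-0.05), and at BDL day 14 the log2 ratio was then 0.29. The libraries could overlap in each comparison.

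*Lgals1* (chr15:78926725-78930465, plus strand) had the second largest ratio of the 10 genes at BDL day 14, without a difference at BDL day 3 beyond the SE. Its mean was 97.5, 90.8 and 550 at day 0, BDL day 3 and BDL day 14. A library could hold 49.9 to 155, 46.5 to 144 and 209 to 977 at day 0, BDL day 3 and BDL day 14, so each BDL day 14 library lay above each library of the other groups. The log2 ratio of BDL day 14 was 2.50 ± 0.43 to day 0 and 2.60 ± 0.43 to BDL day 3, and BDL day 3 against day 0 was -0.10 ± 0.45. The highest library held 44.4% of the group, and without it the ratios were 4.18 and 4.49 in place of 5.64 and 6.06. By group mean, *Lgals1* had rank 853 of the 12889 genes in the day 0 group, 1125 at BDL day 3 and 173 in the BDL day 14 group. The pseudogenes *Lgals1-ps1* and *Lgals1-ps2* are annotated.

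Over the 10 genes, the libraries of BDL day 14 and day 0 could not overlap in 4, all higher at BDL day 14 (*S100a4*, *Anxa1*, *Anxa4* and *Lgals1*), where 3.11% of all genes kept were higher in this way and 3.36% lower. Between BDL day 14 and BDL day 3 the count was 5, all higher at BDL day 14 (*S100a6*, *S100a10*, *S100a11*, *Anxa1* and *Lgals1*), against 1.64% higher and 2.23% lower among all genes. Between BDL day 3 and day 0 it was 1 higher (*Anxa4*), against 2.91%, and 2 lower (*S100a10* and *S100a11*), against 2.47%. These counts need the geometric mean of the table. From the group means and the highest library alone, the count was 0 of 10 in each comparison. By that rule 0.147% of all genes were higher and 1.87% lower at BDL day 3 than at day 0, 0.101% and 1.55% at BDL day 14 than at day 0, and 0.132% and 0.45% at BDL day 14 than at BDL day 3. By a further count, log2 ratios beyond 2 SE, 7 of 10 were higher at BDL day 14 than at day 0 and 0 lower (15.5% and 17.5% of all genes), and 8 of 10 were higher than at BDL day 3 and 0 lower (12.7% and 12.2%). At BDL day 3 against day 0, 2 were higher (*Anxa4* and *Anxa5*) and 2 lower (*S100a10* and *S100a11*) by this count (13.4% and 15.5%). *Anxa5* lay at 2.01 SE, and its sign turned under quantile normalization. *Anxa4*, whose SE could be too small, is in each of these counts of higher genes.

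The single highest library of a gene could only belong to BDL day 14 in 8 of the 10 genes, all but *S100a1* and *Anxa5*, against 13.5% of all genes kept. The table does not name that library, so whether 1 library was the highest for several genes could not be read. Its share of the BDL day 14 signal ran from 30.4% in *Anxa4* to 61.6% in *S100a4*. In the 106 genes with a mean of at least 20 whose highest library belongs to BDL day 14 by the group sums alone, the median share was 39.8%. Of the 8 genes, *S100a4*, *S100a6*, *Anxa1* and *Lgals1* are placed that way too. For *S100a10*, *S100a11*, *Anxa2* and *Anxa4* the placing needs the geometric mean, so this median is not from a like set for them.

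Levels of different genes were compared per kilobase of annotated exon. At day 0 the order ran from *Anxa5* (158 normalized counts per kb), *S100a11* (139) and *Lgals1* (108.0) down to *Anxa4* (14.4) and *Anxa1* (12.0). For a pair of genes, the SE was built from both SDs as if they were independent, although the same libraries gave both levels. None of the 9 neighbouring pairs in that order differed by more than 2 SE. At BDL day 3 *Anxa5* led at 215.5, above *Lgals1* at 101 by more than 2 SE, and *Anxa1* came last at 8.18, below *S100a10* at 23.5 by more than 2 SE. At BDL day 14 *Lgals1* led at 609, followed by *S100a4* at 366 and *Anxa5* at 228, and neither step was beyond 2 SE. *S100a4* thus went from place 8 of 10 at day 0 to place 5 at BDL day 3 and place 2 at BDL day 14. Without the highest library its BDL day 14 level was 188 per kb, place 4 with the other genes as given. Only *Anxa2* (81.2) above *Anxa1* (40.5) was beyond 2 SE among the 9 pairs at BDL day 14. The places depend on the length used. Per kb of the longest transcript, *S100a4* at BDL day 3 (59.4) lay below *Anxa2* (69.3), *S100a11* (65.4) and *S100a6* (61.3). By that length *S100a6* (298) lay above *Anxa5* (234) at BDL day 14.

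**Figure D3:**
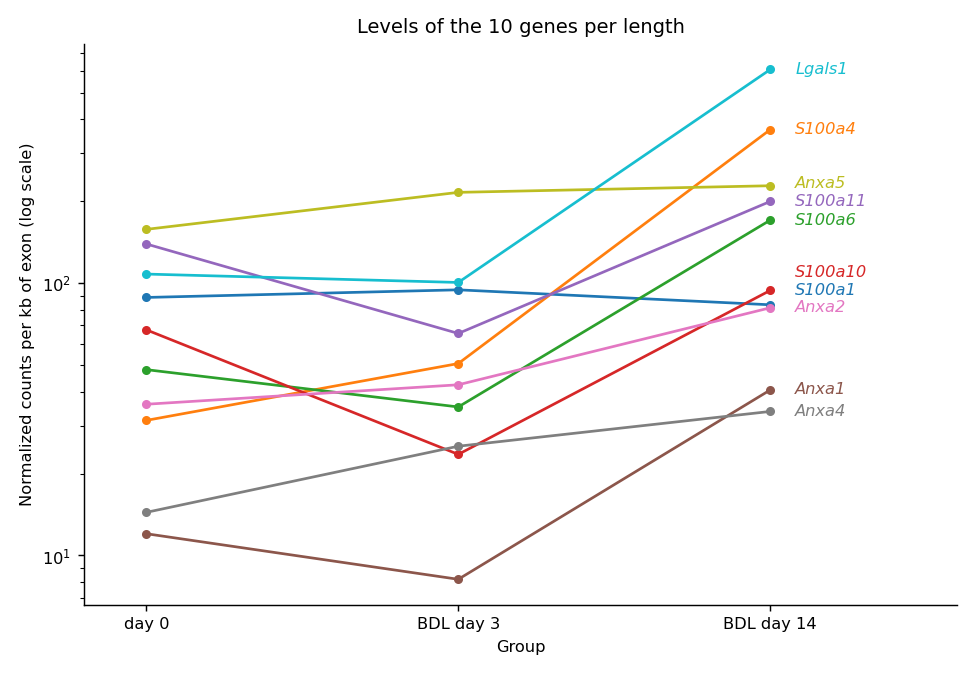
Authors' group means of the 10 genes divided by exon length (normalized counts per kb, log axis) in the 3 groups, without error bars. *Lgals1* and *S100a4* lead at BDL day 14 at 609 and 366 (188 for *S100a4* without its highest library), and *S100a10* and *S100a11* dip at BDL day 3.

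The other genes of the 3 families were counted from lists. Of 11 other S100 genes listed, 6 were in the table and 5 were kept, of which 0 were past 1.5-fold higher and 4 lower at BDL day 3, and 1 higher and 2 lower at BDL day 14. *S100a9* and *S100a8*, the calprotectin chains made by neutrophils and monocytes, had means of 306 and 123 in the day 0 group, of 139 and 49.1 at BDL day 3 and of 80.9 and 37.6 in the BDL day 14 group. Both genes also belong to the neutrophil list, which summed to 529, 255 and 167 over 8 markers, *Ly6g* included, its defining marker, which was under the filter at 0.563, 0.419 and 0.061. *S100a13* stood at 40.3, 26.9 and 39.5 and *S100a16* at 24.5, 10.2 and 36.3, so *S100a16* was lower at BDL day 3, as *S100a10* and *S100a11* were. The difference between the 5 S100 genes described and the other 5 was not tested.

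Of 8 other annexins listed, 7 were in the table and 6 were kept, with 1 higher and 2 lower at BDL day 3 and 0 higher and 1 lower at BDL day 14. *Anxa6*, an annexin with a doubled core, stood at 122, 132 and 87.3, *Anxa3* at 88.1, 97.6 and 93.8, *Anxa7* at 52.5, 56.6 and 77.3 and *Anxa11* at 26.3, 49.5 and 34.0. Their median log2 ratio at BDL day 14 was 0.02, against 1.20 for the 4 annexins described. The genes and lists were chosen with earlier results of these data known, and this difference was not tested. Of 8 other galectins, 6 were in the table and 5 kept, with 1 higher and 2 lower at each time. *Lgals3*, the galectin of macrophages and bile duct cells, had means of 356, 1550 and 1430, higher than day 0 by log2 ratios of 2.12 ± 0.22 and 2.01 ± 0.20 at the early and the late time. *Lgals3* was thus already past the call at BDL day 3, where *Lgals1* was not, a difference that was not tested. *Lgals9* (155, 193 and 147) and *Lgals8* (42.3, 43.3 and 54.0) did not pass the call at either time.

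**Figure D4:**
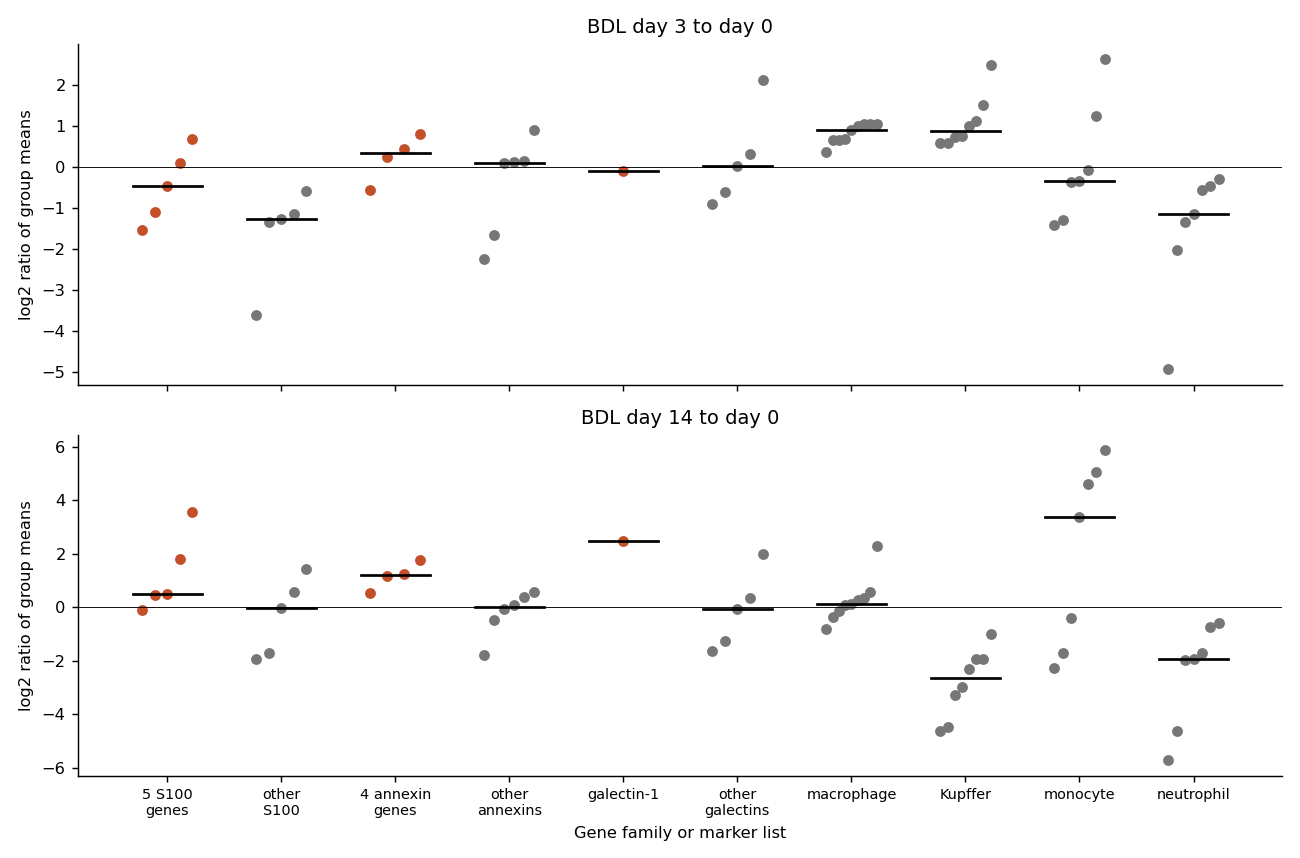
Log2 ratio of group means to day 0 at BDL day 3 (top) and BDL day 14 (bottom) for the genes described (orange), the other genes of each family and 4 marker lists (grey), 1 point per gene kept, with the median of each list as a line. At BDL day 14 the annexins described have a median of 1.20 and the other annexins of 0.02, a difference not tested. The genes and lists were chosen with earlier results of these data known. The medians of the Kupffer cell and monocyte lists lie on opposite sides of 0.

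The known receptors and surface partners of these proteins did not move in 1 direction. Of 13 listed, 12 were kept, with 2 higher and 5 lower at BDL day 3 and 3 higher and 2 lower at BDL day 14. *Lamp1*, a glycoprotein that galectins bind, had means of 640, 1410 and 1590. The scavenger receptor gene *Cd36* stood at 70.8, 208 and 319, and neither *Bsg* (246, 289 and 214), which encodes a receptor of S100a9, nor *Itgb1* (181, 250 and 263), the integrin beta 1 subunit gene, passed the call. Genes of the formyl peptide receptors of Anxa1 were past 1.5-fold lower at BDL day 14, where *Anxa1* was higher. *Fpr1* stood at 160, 101 and 18 and *Fpr2* at 58.2, 31.1 and 16, a pair chosen after their values were seen. *Emb*, the S100a9 receptor gene embigin, stood at 11.0, 13.6 and 143 and was chosen in the same way.

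Among 9 intracellular partners, 0 were higher and 2 lower at BDL day 3, and 2 were higher and 3 lower at BDL day 14. *Ahnak*, a giant scaffold that the S100a10 and Anxa2 complex binds, had means of 48.9, 19.2 and 102. Against day 0 it had log2 ratios of -1.35 ± 0.32 at the early time, where its libraries could not overlap with day 0, and 1.06 ± 0.30 at the late one, so it was lower and then higher in the order of *S100a10*. *Myh9*, the non-muscle myosin that S100a4 binds, stood at 130 in both early groups and 112 at BDL day 14. *Pdcd6ip* (52.0, 59.3 and 50.5) and *Pdcd6* (46.6, 48.2 and 52.2), partners of annexins in membrane budding and repair, did not pass the call.

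Of 7 genes of the plasminogen system, which the S100a10 and Anxa2 complex serves at the cell surface, 6 were kept, with 1 higher and 2 lower at BDL day 3 and 2 higher and 2 lower at BDL day 14. *Plaur*, the urokinase receptor gene, had means of 8.80, 37.8 and 54.2, and its libraries could not overlap with day 0 at either time. *Plg*, the hepatocyte gene for plasminogen, stood at 52.8, 20.4 and 5.51, while the 12 hepatocyte markers summed to 3834, 1077 and 465. The part of the hepatocyte signal in the *Plg* values was not tested. *Plgrkt* (49.3, 43.6 and 43.9) and *Plau* (20.3, 17.4 and 27.6) did not pass the call. Of 10 other EF-hand genes, 9 were kept, with 4 higher and 0 lower at BDL day 3 and 4 higher and 1 lower at BDL day 14. Of these, *Aif1* had means of 479, 411 and 219, *Capns1* of 216, 436 and 352 and *Efhd2* of 118, 235 and 226.

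The marker lists of other cell types moved between the same groups. At BDL day 14 against day 0, 8 of 8 Kupffer cell markers were past 1.5-fold lower, and 4 of 7 monocyte markers were higher and 2 lower. *Chil3*, *F13a1* and *Cx3cr1* had means of 14.7, 10.0 and 11.7 at day 0 and 858, 334 and 285 at BDL day 14, while *Plac8* went from 228 to 46.9 and *Ly6c2*, a defining marker of inflammatory monocytes, from 21.9 to 6.69. *Lyz2*, shared by macrophages and monocytes, stood at 2280, 4560 and 11200. It was the 1 of 9 macrophage markers that was higher at BDL day 14 than at day 0, and 1 (*C1qc*) was lower. At BDL day 3, 8 of 9 macrophage and 7 of 8 Kupffer cell markers were higher, and 12 of 12 mesenchymal markers were lower, with sums of 1489, 34.2 and 142 in the 3 groups. For cholangiocyte markers, 0 were higher and 8 lower at BDL day 3, and 2 were higher and 7 lower at BDL day 14. Of the lists left, endothelial, T and NK cell, B cell, dendritic cell and proliferation markers had 0 of 8, 0 of 8, 0 of 5, 1 of 6 and 1 of 6 higher at BDL day 3 and 2, 0, 0, 4 and 2 higher at BDL day 14. In the same order the lower ones numbered 7, 7, 5, 5 and 2 at the early time and 3, 8, 5, 2 and 0 at the late one. Lower hepatocyte markers numbered 9 of 12 early and 12 of 12 late, lower neutrophil markers 4 and 6 of 7, and all 12 mesenchymal markers were lower late as well. The part that these cells have in the values of the 10 genes was not tested.

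The gene most like each of the 10 in its 2 log2 ratios to day 0 was sought among 7281 genes with a mean of at least 10. The distance was taken over these 2 ratios and does not depend on the level of a gene. *Emp1* lay nearest to *S100a4*, at a distance of 0.17, with means of 15.4, 22.9 and 195. *Napsa* lay nearest to *Lgals1* (0.067), *Lhfpl2* to *S100a10* (0.13), *Sntb2* to *S100a11* (0.048) and *Clec4a2* to *Anxa2* (0.011). *Atp8b4* was nearest to both *S100a6* (0.019) and *Anxa1* (0.11), with means of 6.14, 4.42 and 21.7. *Slc16a6*, *Rab28* and *Phf3* lay nearest to *Anxa4*, *Anxa5* and *S100a1* (0.019, 0.011 and 0.0039). The likeness rests on 3 group means for each gene.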

How the data were processed

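mRNA of sorted GFP(+) cells was sequenced for 12 samples, which the labels place in the day 0, BDL day 3 and BDL day 14 groups (3, 3 and 6). In Partek Flow, the authors ran quality trimming, STAR alignment to mm10 (version 2.6.1d in the submitters' processing notes), counting on GENCODE genes and upper quartile normalization. The deposited table holds signal values, namely the authors' least squares mean of normalized counts per group and the sum, maximum, geometric mean and arithmetic mean over all libraries. It has 0 columns per library, so the depth per library is unknown and no counting error was given. Its further columns hold the authors' p-values, FDR, ratios, fold changes and limits for 3 comparisons and were not used.

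The 10 genes, the gene lists and the motifs were chosen with earlier results of these data known. Genes were kept at a summed signal of at least 10, after leaving out 2 repeated symbols, and called past 1.5-fold. All 10 genes, up to 4 genes per list with the highest mean and the nearest gene to each of the 10 are named. An item that this rule would name is not reported here. The pooled SD was taken from the gap between the geometric mean and the group means, with 7 residual libraries, and the ranges from all libraries that fit the rounded means, maximum and geometric mean. Both steps were added after the columns of the table were seen, and were tested on simulated data. Coordinates are GRCm38, and exon lengths are from GENCODE M21. Python 3.11.15, numpy 2.4.6 and pandas 2.3.3 were used. The alternatives were a pseudocount, median-ratio scaling, quantile normalization, a 2-fold call, other filters, the highest library left out, rounding of the means and maximum by 1%, 6 BDL day 14 libraries and the longest transcript as length.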

Additional observations from a re-analysis of the deposited data

How the results depend on the processing

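Recomputed under the alternatives, 112 of the summary values equalled their main value or stayed within 1.5 times of it, and 17 did not. These values are counts and levels, which have no sign that could turn. Some of the 112 could not move, such as counts of the 10 genes under the other filters, which all 10 pass. With quantile normalization, 4 of the 10 genes were lower at BDL day 3 in place of 2. With a 2-fold call, 0 of the 10 genes were higher at BDL day 3 in place of 2, and over the family and pathway lists 9 genes in place of 15 were higher and 3 in place of 11 lower at BDL day 14 against BDL day 3. With a mean of at least 10, the lists had 8 genes lower at BDL day 3 in place of 17, 8 lower at BDL day 14 in place of 13 and 9 higher at BDL day 14 against BDL day 3 in place of 15, since fewer genes were tested. Bounds that use the geometric mean gave 3, 4 and 5 genes whose libraries could not overlap, in place of 0 in each comparison. Rounding and the larger number of BDL day 14 libraries were tried only on the bounds without the geometric mean, where the count stayed at 0. A wider rounding could not lower a count of 0, and the counts of 3, 4 and 5 were not tested in this way. With the longest transcript as length, day 0 levels per kb were 84.0 for *S100a6*, 119 for *S100a10*, 20.9 for *Anxa1*, 58.8 for *Anxa2* and 25.5 for *Anxa4*, in place of 48.1, 67.4, 12.0, 35.9 and 14.4. Without the highest library, chosen after seeing the data, BDL day 14 levels per kb were 188 for *S100a4* and 113 for *S100a6*, in place of 366 and 170. For the log2 ratios of single genes, 232 moved by less than a 1.5-fold change and 8 by more. The 8 were all of *S100a4* and *S100a6* without the highest library, and no ratio past the call changed sign. No SE enters this rule, and the other filters could not change the ratio of a single gene. Under quantile normalization the uncalled log2 ratios of *S100a1*, *Anxa2* and *Anxa5* at BDL day 3 turned to -0.10, -0.07 and -0.05. No paired analysis was possible because the table has no values per library. Leaving out each replicate in turn was not run for the same reason. The depth per library is unknown, and the pooled SD rests on 10 libraries and is taken as equal in the 3 groups.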
